A study of Mus musculus with 58 samples.

Results

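Platelet-lineage priming genes are transcripts of the megakaryocyte and platelet lineage that can be read in hematopoietic stem cells (HSCs). The 9 members followed here were taken as a list of symbols, Vwf, Selp, Pf4, Gp1bb, Gp9, Gp5, Clec1b, Treml1 and Cd9, out of 55376 genes in the RNA-seq count tables. All 9 symbols were found, 8 members passed the filter on low counts in every comparison, and Gp1bb passed it in none. HSCs were sorted from bone marrow of male C57BL/6 mice as Lin-Sca-1+c-Kit+CD34-Flk2-CD150+ cells. The old mice came from an aged rodent colony of the NIA and the young mice from The Jackson Laboratory. Old mice, 24 to 26 months of age, were fed ad libitum (OAL, n = 4 libraries), kept on lifelong 40% caloric restriction (CR) from 3 to 4 months of age (OCR, n = 4), or refed for 4 weeks after lifelong CR (OCRRF, n = 2). Young mice, 3 to 4 months of age at the start, were fed ad libitum (YAL, n = 4), restricted for 4 weeks, by 20% in the first week and by 40% for the next 3 (YCR, n = 4), or refed for 4 weeks after that (YCRRF, n = 4). In a further experiment, HSCs of aged mice were cultured, infected with lentivirus carrying shRNA, and transplanted with myeloid progenitors into lethally irradiated young female CD45.1 mice, from which the donor cells were sorted again as CD45.2+ LSK CD48-CD150+ cells. These cells carried an shRNA to Kdr, the receptor of vascular endothelial growth factor (GFP_Kdr, n = 4), its GFP scramble (GFP_Scramble, n = 2), shRNAs to both Kdr and Bmpr1a, a receptor of bone morphogenetic proteins (Double_KdrBmpr, n = 4, with 2 libraries for each of 2 Bmpr1a hairpins), or the scrambles of both vectors (Double_Scramble, n = 2). The study counts the replicates of its diet groups as mice. Neither its methods nor the labels say whether mice were pooled for a library, and p-values measure the spread between these libraries.

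Megakaryocytes shed platelets, and a fraction of HSCs is known to carry megakaryocyte transcripts and to give rise to platelets preferentially. Expression of Vwf marks such platelet-biased HSCs, and they are known to become more frequent as mice age. Among the members, Vwf (von Willebrand factor) is the plasma ligand that tethers platelets to injured vessel wall, and Gp1bb, Gp9 and Gp5 encode 3 subunits of the GPIb-IX-V complex that binds it. Selp (P-selectin) is an adhesion receptor stored in platelet granules and in endothelial cells. Pf4 (platelet factor 4, CXCL4) is a chemokine of platelet alpha granules that is known to hold HSCs in quiescence when megakaryocytes release it. Clec1b (CLEC-2) is the platelet receptor for podoplanin, Treml1 (TLT-1) is a receptor of the alpha granule membrane, and Cd9 is a tetraspanin found on platelets and on many other cells. Vwf and Selp are also made by endothelial cells.

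GATA1 and ETS factors such as FLI1 are known to drive megakaryocyte genes. RefSeq promoters of build GRCm38.p6 (mm10) were matched for 8 of the 9 members by symbol, and Vwf was not matched. Upstream sequences of 250 bases are printed below, 5′ to 3′ on the strand of the gene, for the 5 matched members that differed between OCR and OAL or between OCRRF and OCR HSCs, because these are the promoters on which the accessibility and PU.1 values given later bear. Capitals mark the GATA letters AGATAA or TGATAA and the ETS letters AGGAAG on either strand, so that a match on the opposite strand is printed as the reverse complement of these letters. None of these matches overlapped another.

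Selp, chr1:164115014-164115263, plus strand: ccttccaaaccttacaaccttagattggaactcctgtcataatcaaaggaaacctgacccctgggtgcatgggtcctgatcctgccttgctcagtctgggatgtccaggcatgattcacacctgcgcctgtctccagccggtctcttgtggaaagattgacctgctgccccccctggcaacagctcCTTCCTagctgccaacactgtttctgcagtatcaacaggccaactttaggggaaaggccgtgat
Clec1b, chr6:129397047-129397296, plus strand: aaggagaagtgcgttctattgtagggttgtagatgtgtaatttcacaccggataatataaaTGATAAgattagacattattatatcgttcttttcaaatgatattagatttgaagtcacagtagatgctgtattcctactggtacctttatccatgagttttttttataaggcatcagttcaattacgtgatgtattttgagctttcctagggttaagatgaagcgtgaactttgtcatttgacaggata
Pf4, chr5:90772185-90772434, plus strand: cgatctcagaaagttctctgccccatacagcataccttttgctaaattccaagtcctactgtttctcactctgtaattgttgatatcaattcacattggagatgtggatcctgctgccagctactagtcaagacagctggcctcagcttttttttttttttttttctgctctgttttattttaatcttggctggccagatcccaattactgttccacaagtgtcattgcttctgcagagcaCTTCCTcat
Gp9, chr6:87777820-87778069, plus strand: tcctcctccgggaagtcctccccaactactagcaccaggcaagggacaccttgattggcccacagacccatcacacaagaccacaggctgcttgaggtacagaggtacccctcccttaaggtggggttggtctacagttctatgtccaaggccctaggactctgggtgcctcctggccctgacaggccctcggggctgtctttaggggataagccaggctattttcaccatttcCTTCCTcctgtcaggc
Gp5, chr16:30310782-30311031, minus strand: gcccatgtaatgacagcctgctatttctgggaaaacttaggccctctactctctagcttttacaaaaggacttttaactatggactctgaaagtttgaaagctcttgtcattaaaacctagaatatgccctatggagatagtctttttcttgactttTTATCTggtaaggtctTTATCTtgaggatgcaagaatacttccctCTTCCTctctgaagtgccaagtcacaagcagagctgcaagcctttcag

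Gp5 held GATA letters at 2 places and ETS letters at 1, Clec1b held GATA letters at 1 place, and Selp, Pf4 and Gp9 held ETS letters at 1 place each. Among the other matched members, Cd9 held ETS letters at 1 place, and Gp1bb and Treml1 held no match in this window. In all, GATA letters were in 16.6% of 32851 mouse promoters of the same length, ETS letters in 29.5% and both in 4.72%. These matches are descriptions of the sequence and not of binding.

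On mm10 (coordinates from GENCODE mouse release 21), Vwf lies at chr6:125546774-125686679 and Cd9 at chr6:125460266-125494791 on the opposite strand, 51983 bp away. Clec1b (chr6:129397297-129409335) and Gp9 (chr6:87778072-87779768) are on the same chromosome. Selp lies at chr1:164115264-164150026, Pf4 at chr5:90772435-90773383 next to the platelet chemokine gene Ppbp, Gp5 at chr16:30307685-30310779, Gp1bb at chr16:18620317-18622403 and Treml1 at chr17:48359916-48367176. Several members share exon sequence with other genes. The exons of Gp1bb overlap those of Sept5 and Gm49601 on the same strand, and those of Clec1b overlap Clec9a on the same strand. The exons of Selp overlap the antisense genes Gm16587 and Gm16548, and those of Cd9 overlap Gm26728. The strand setting of the authors' counting was not given in the sources used here, so reads of these overlapping pairs cannot be told apart.

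The diet libraries held 11102898 to 36579392 counts and the transplant libraries 35657999 to 44780217. Genes with a count numbered 22209 to 33496 in young libraries and 42071 to 46646 in old ones, and counts on olfactory and vomeronasal receptor genes, which HSCs do not use, were 66.5 to 474 CPM (counts scaled to library size) in young and 530 to 1486 CPM in old libraries, highest in OCRRF (1161 to 1486 CPM). No label gives a sequencing batch, and old and young mice came from different sources, so age, source and batch cannot be told apart. Replicate 3 of YCRRF stood apart from its group, with a chi-square of 153 to 336 per gene against the other 3 libraries, where all other replicate pairs had at most 56.5. Of the HSC markers, Kit was at 1062 to 1873 CPM, Procr at 167 to 287 CPM and Hlf at 460 to 713 CPM in the diet libraries, and 8 genes of cells the sort leaves out summed to 124 to 258 CPM. Transplanted cells had 1351 to 1664 CPM of Kit, 96.9 to 164 CPM of Procr and 237 to 444 CPM of Hlf, and 405 to 931 CPM for the genes that the diet sort leaves out.

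Levels below are CPM scaled by TMM over the libraries of an experiment. Between genes, levels were compared as CPM per kilobase of exon. In OAL HSCs this level was 111 for Cd9, 102 for Selp, 41.6 for Gp9, 39.2 for Pf4, 37.7 for Vwf, 12.7 for Gp5, 4.89 for Treml1, 2.09 for Clec1b and 0.0586 for Gp1bb. Libraries of Cd9 and Selp overlapped in it, as did those of Gp9, Pf4 and Vwf, while the remaining neighbours in this order were apart in every library. In YAL HSCs the order was different, with Cd9 at 91.3, Pf4 at 53.2, Gp9 at 33.1, Vwf at 23.5 and Selp at 19.7 CPM per kilobase. Gp1bb had 0 to 12 counts in each library, at most 0.710 CPM, beside at most 1.29 CPM of Sept5 that shares its exons, and no comparison was made for it.

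**Figure D1:**
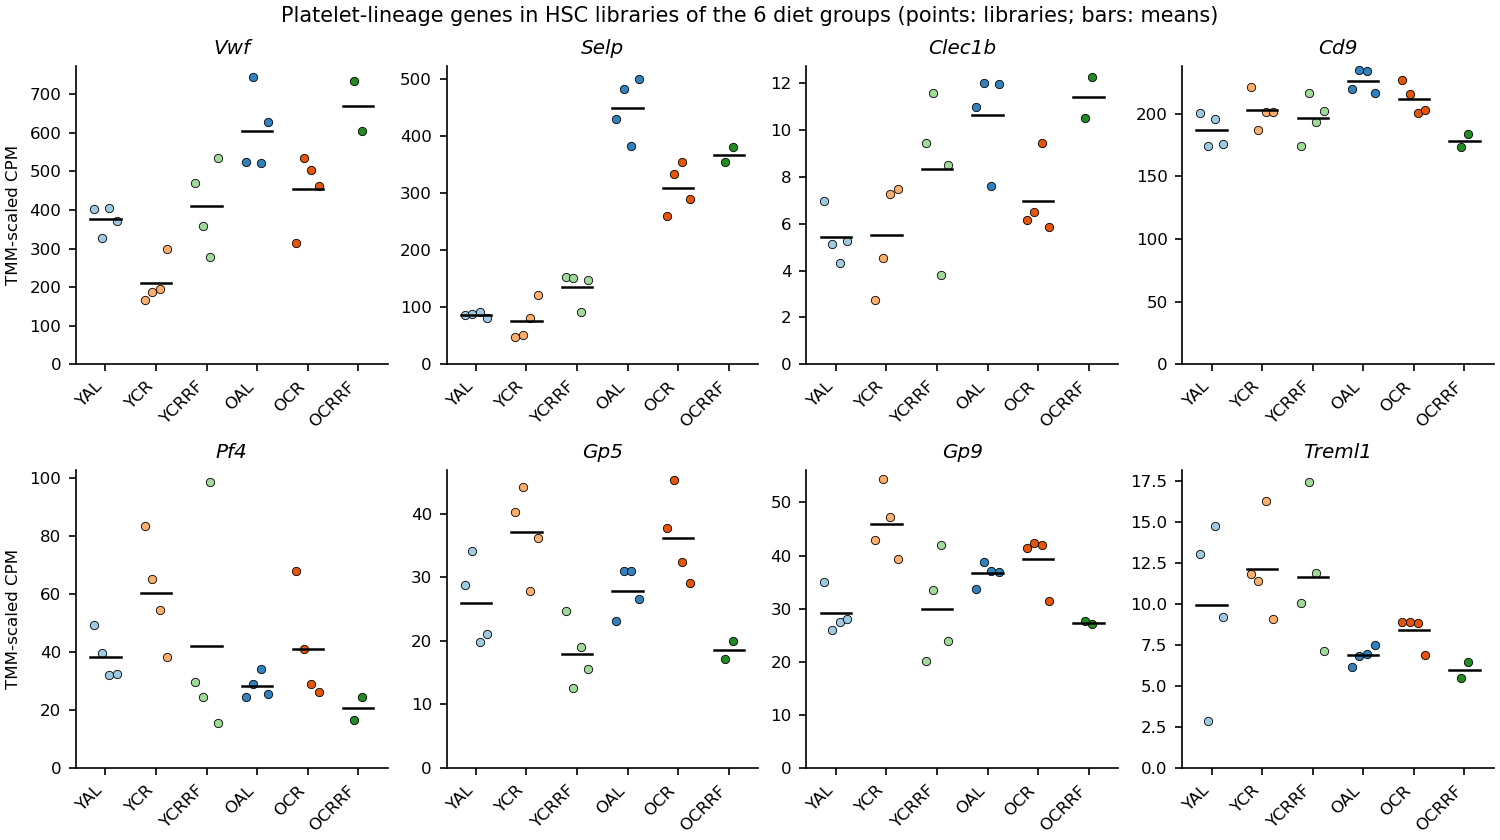
Level of the 8 measured members in CPM (vertical axes, each with its own scale) in the 6 diet groups of HSCs. Points are libraries and bars are group means. Selp in all 10 old libraries (259 to 500 CPM) lies above all 12 young ones (47.5 to 154 CPM), and Gp5 in the 2 OCRRF libraries (17.2 and 20.0 CPM) lies below the 4 OCR libraries.

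The difference between old and young was read from OAL and YAL HSCs, where age, source of the mice and batch cannot be told apart. Selp, Vwf, Clec1b and Cd9 were higher in OAL, by 5.21-fold, 1.62-fold, 1.98-fold and 1.22-fold. Gp9, Gp5, Pf4 and Treml1 did not pass the test. In this comparison 14.8% of 23525 genes passed (adjusted p below 0.05 in edgeR's quasi-likelihood test with Benjamini-Hochberg adjustment, and a fold above 1.2), and the groups did not overlap for 27.5% of genes. Of the genes that passed, 1620 were higher and 1866 lower in OAL, or 1870 and 784 with TMM factors computed on well-expressed genes only (an average of 5 CPM or more).

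Selp stood at 86.6, 88.5, 91.7 and 80.7 CPM in YAL and at 430, 483, 383 and 500 CPM in OAL HSCs. All OAL libraries lay far above all YAL libraries. The log2 fold change was 2.38 (SE 0.0888, edgeR adjusted p = 1.39e-07). Both antisense genes that share exons with Selp were also higher in OAL than in YAL, Gm16587 by 2.40 (SE 0.156) and Gm16548 by 2.23 (SE 0.149) on the log2 scale.

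Vwf was at 402, 327, 406 and 372 CPM in YAL and at 526, 744, 522 and 630 CPM in OAL HSCs, and all OAL libraries were above all YAL libraries. Its log2 fold change was 0.70 (SE 0.114, edgeR adjusted p = 0.00409). Clec1b, a gene of low counts, was at 6.98, 5.14, 4.31 and 5.27 CPM in YAL and at 11.0, 12.0, 7.61 and 12.0 CPM in OAL, again without overlap. It differed by 0.99 (SE 0.235, edgeR adjusted p = 0.0188) on the log2 scale, and its call was lost when OAL replicate 1, 2 or 4 was left out (adjusted p = 0.0672 to 0.0721). Clec9a, which shares exon sequence with it, was higher in OAL by 1.42 (SE 0.309).

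Cd9 differed least, with 174 to 201 CPM in YAL and 217 to 235 CPM in OAL libraries, which did not overlap. Its log2 fold change was 0.29 (SE 0.0706, edgeR adjusted p = 0.0203), and the call was lost without OAL replicate 1, 2 or 3 (adjusted p = 0.0533 to 0.0725) and, by its fold, without YAL replicate 2 or 4. Pf4 had 32.0 to 49.5 CPM in YAL and 24.5 to 34.2 CPM in OAL HSCs, a log2 fold change of -0.43 (SE 0.169) that missed the threshold (edgeR adjusted p = 0.112). Gp9 differed by 0.35 (edgeR adjusted p = 0.0898), Gp5 by 0.12 (0.726) and Treml1 by -0.52 (0.417). Gp9 passed without YAL replicate 1 (adjusted p = 0.0220) and Treml1 without YAL replicate 2 (-0.85, adjusted p = 0.0188), the library with the lowest Treml1 of its group.

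Whether lifelong CR altered the members was read from OCR and OAL HSCs. Selp and Clec1b fell, by 1.44-fold and 1.51-fold, and no member passed as higher in the main fit. In this comparison 5.57% of 27150 genes passed, 2.54% higher and 3.03% lower, and 11.4% of genes had no overlap between the groups. The split of 689 higher and 822 lower became 894 and 697 with those other TMM factors. Of the 8 members tested, 4 had a positive and 4 a negative log2 fold change, with a median of 0.02 beside 0.02 over all genes tested.

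In OCR HSCs Selp was at 259, 333, 354 and 290 CPM, every library below the lowest of the OAL libraries (383 CPM). The log2 fold change was -0.52 (SE 0.0959, edgeR adjusted p = 0.000524), and it passed with each library left out in turn (-0.60 to -0.45) but not in 1 fit of all diet groups (-0.54, adjusted p = 0.702). The mean of 309 ± 42.6 CPM (SD, n = 4) in OCR lay between 449 ± 53.3 in OAL and 86.9 ± 4.66 in YAL. Gm16548 was lower in OCR by 0.61 on the log2 scale (edgeR adjusted p = 0.000187), and Gm16587 differed by -0.38 (edgeR adjusted p = 0.0550).

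Clec1b was at 6.15, 6.53, 9.44 and 5.88 CPM in OCR HSCs, and OCR replicate 3 lay above the lowest OAL library (7.61 CPM). Its log2 fold change of -0.59 (SE 0.170) passed the threshold narrowly (edgeR adjusted p = 0.0341). Without OCR replicate 1, 2 or 4, or OAL replicate 1, 2 or 4, it no longer passed (adjusted p = 0.0887 to 0.185). The call was also lost with the other TMM factors (adjusted p = 0.0880), with at least 10 counts required in each library (0.0550) and in 1 fit of all diet groups (1.00).

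Vwf had 315, 535, 504 and 462 CPM in OCR HSCs, and the highest of these was above the 2 lowest OAL libraries. Its log2 fold change of -0.40 (SE 0.122) missed the threshold (edgeR adjusted p = 0.0522). Vwf passed in 6 of 16 alternative settings. Among these were the fits without OCR replicate 2 (adjusted p = 0.0201), OAL replicate 1 (0.0337) or OAL replicate 3 (0.0400).

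Pf4 and Gp5 went the other way without passing. Pf4 was at 68.0, 41.2, 29.0 and 26.4 CPM in OCR beside 24.5, 28.8, 34.2 and 25.4 CPM in OAL HSCs, with the groups overlapping, and the log2 fold change was 0.56 (SE 0.183, edgeR adjusted p = 0.0752). OCR replicate 1 carried much of it, since without that library the value was 0.21 (adjusted p = 0.554), while without OCR replicate 3 or 4 it passed (0.69, adjusted p = 0.0389, and 0.72, adjusted p = 0.00558). In all, Pf4 passed in 3 of 16 alternative settings.

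Gp5 was at 37.8, 45.3, 32.4 and 29.0 CPM in OCR beside 23.1, 31.0, 30.9 and 26.6 CPM in OAL HSCs, with 1 OCR library inside the OAL range (log2 fold change 0.39, SE 0.123, edgeR adjusted p = 0.0605). It passed in 5 of 16 alternative settings, among them without OCR replicate 4 (adjusted p = 0.0134) or OAL replicate 2 (0.0415). Gp9 differed by 0.11 (adjusted p = 0.671), Treml1 by 0.31 (0.319) and Cd9 by -0.08 (0.695), none of which passed.

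Since Selp and Vwf are made by endothelial cells too, the 11 endothelial markers were summed. They gave 411 to 453 CPM in OAL and 309 to 392 CPM in OCR libraries, and 2 of 11 fell (Emcn and Kdr) and 1 rose (Stab1). Of the 11 log2 fold changes, 7 were positive and 4 negative, with a median of 0.19 beside 0.02 over all genes tested. Of the defining endothelial genes, Cdh5 was at 0.380 to 0.913 CPM in OAL and 0.690 to 1.26 CPM in OCR, and Plvap at 0.949 to 1.90 and 0.720 to 1.14 CPM. Most of the sum was Tie1, at 286 to 303 CPM in OAL and 219 to 272 CPM in OCR, a gene that HSCs also use. In bulk samples, fewer cells of a type and less RNA per cell cannot be told apart.

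Refeeding after lifelong CR was read from OCRRF against OCR HSCs, with 2 OCRRF libraries. Vwf rose by 1.42-fold, and Pf4, Gp5 and Gp9 fell by 2.09-fold, 2.03-fold and 1.49-fold. With the other TMM factors Vwf (adjusted p = 0.0176) and Gp5 (0.00175) passed and Pf4 (0.0870) and Gp9 (0.0762) did not, and in 1 fit of all diet groups none of the 4 passed (0.249 to 1.00). In this comparison 3.41% of 32577 genes passed, 0.694% higher and 2.71% lower, and 28.3% had no overlap. The split of 226 higher and 884 lower became 341 and 575 with the other TMM factors. The median log2 fold change was -0.43 over the 8 members tested and 0.11 over all genes tested, so each value below is to be read beside a general shift of 0.11.

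Gp5 was at 17.2 and 20.0 CPM in OCRRF HSCs, below all 4 OCR libraries (29.0 to 45.3 CPM). Its log2 fold change was -1.02 (SE 0.163, edgeR adjusted p = 5.83e-05). Pf4 was at 16.7 and 24.6 CPM, likewise below all OCR libraries, of which the lowest had 26.4 CPM (log2 fold change -1.06, SE 0.229, edgeR adjusted p = 0.00355).

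Gp9 was at 27.6 and 27.1 CPM in OCRRF beside 41.4, 42.4, 41.9 and 31.4 CPM in OCR HSCs. The groups did not overlap and the log2 fold change was -0.58 (SE 0.145, edgeR adjusted p = 0.0151), but the call was lost without OCRRF replicate 1 (adjusted p = 0.154), OCRRF replicate 2 (0.270) or OCR replicate 2 (0.0674). With a replicate of OCRRF left out, the remaining library was taken to vary like those of OCR.

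Vwf was at 736 and 606 CPM in OCRRF HSCs, above all 4 OCR libraries. The log2 fold change was 0.51 (SE 0.140, edgeR adjusted p = 0.0319), and the call was lost without OCRRF replicate 1 (0.32, adjusted p = 0.548), OCR replicate 1 (adjusted p = 0.0751) or OCR replicate 4 (0.0538). Clec1b had 10.5 and 12.3 CPM, also above all OCR libraries, without passing (log2 fold change 0.65, edgeR adjusted p = 0.0684). Without OCR replicate 3 it passed (adjusted p = 0.00954).

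Selp was at 355 and 381 CPM, which lay above all OCR and below all OAL libraries. It differed from OCR by 0.19 on the log2 scale (edgeR adjusted p = 0.427) and from OAL by -0.30 (edgeR adjusted p = 0.0602), and neither passed, although the latter did without OAL replicate 3 (adjusted p = 0.0496). Cd9 differed from OCR by -0.30 (edgeR adjusted p = 0.167) and Treml1 by -0.55 (edgeR adjusted p = 0.162), and Cd9 passed without OCR replicate 3 (adjusted p = 0.0431).

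Against OAL HSCs, where 4.14% of 31816 genes passed (1.66% higher and 2.48% lower, 528 and 788 genes, or 754 and 54 with the other TMM factors) and 38.6% had no overlap, OCRRF HSCs had lower Gp5 (log2 fold change -0.60, SE 0.132, edgeR adjusted p = 0.0287), Gp9 (-0.43, SE 0.0992, edgeR adjusted p = 0.0313) and Cd9 (-0.35, SE 0.0685, edgeR adjusted p = 0.0204). The 2 OCRRF libraries had 173 and 183 CPM of Cd9, below all OAL libraries. These 3 calls were lost without either OCRRF library (adjusted p = 0.0936 to 0.183) with the other TMM factors, and in 1 fit of all diet groups. Gp9 was also lost without any 1 of the OAL libraries, Gp5 without OAL replicate 2, 3 or 4, and Cd9 without OAL replicate 1 or 2 (adjusted p = 0.0562 to 0.0932). Vwf (0.13, edgeR adjusted p = 0.455) and Clec1b (0.08, edgeR adjusted p = 0.789) were near their OAL levels and Pf4 differed by -0.47 (edgeR adjusted p = 0.0779). The comparisons with OAL and OCR share the OCRRF libraries and are not independent of each other. The counts on olfactory and vomeronasal receptor genes, 1161 to 1486 CPM in OCRRF beside 561 to 1257 CPM in OCR and 530 to 752 CPM in OAL, moved with these comparisons, and their part in them was not tested.

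**Figure D2:**
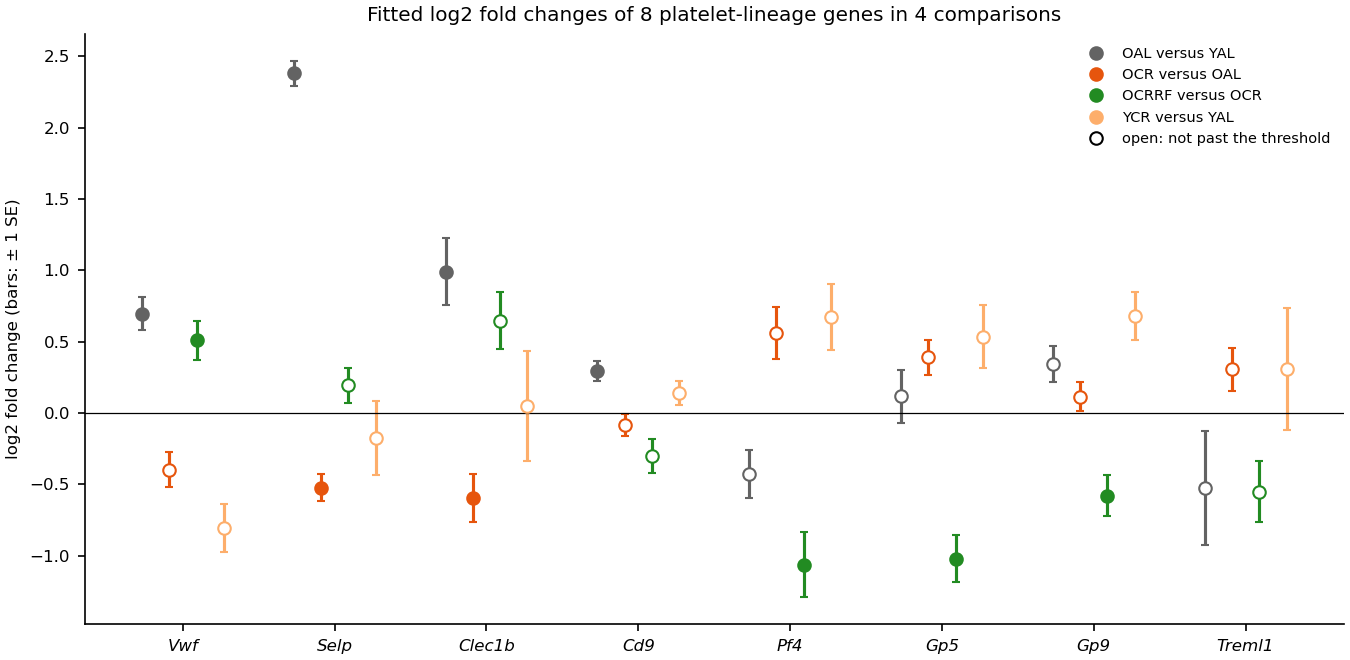
Log2 fold change (vertical axis, bars ± 1 SE) of the 8 tested members in OAL against YAL, OCR against OAL, OCRRF against OCR, and YCR against YAL HSCs. Filled points passed the adjusted p and fold thresholds. Selp and Clec1b are filled below 0 under CR of old mice, and Pf4, Gp5 and Gp9 are filled below 0 and Vwf above 0 after refeeding.

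In young mice, short-term CR was read from YCR and YAL HSCs, where 0.257% of 18680 genes passed (0.0642% higher and 0.193% lower) and 6.32% had no overlap. No member passed edgeR's test. At an unadjusted p under 0.05, 4 members would be counted (Vwf, Pf4, Gp9 and Gp5), beside 9.29% of all genes, and DESeq2 called 2, Vwf and Gp9, beside 1.2% of 43742 genes. Vwf had the smallest p. It was at 166, 187, 194 and 300 CPM in YCR HSCs, all below the 327 to 406 CPM of the YAL libraries, and its log2 fold change was -0.81 (SE 0.169, edgeR adjusted p = 0.0896). Without YCR replicate 4, the library nearest to YAL, it passed (-1.03, adjusted p = 0.00487).

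Gp9 was at 42.9, 54.4, 47.3 and 39.4 CPM in YCR and at 35.1, 26.0, 27.5 and 28.1 CPM in YAL HSCs, with no overlap (log2 fold change 0.68, SE 0.167, edgeR adjusted p = 0.159). Pf4 was at 83.5, 65.2, 54.6 and 38.3 CPM in YCR, of which the last lay in the YAL range (0.67, edgeR adjusted p = 0.359). Gp5 was at 40.3, 44.2, 27.8 and 36.1 CPM in YCR beside 28.7, 34.2, 19.9 and 21.1 CPM in YAL (0.54, edgeR adjusted p = 0.469). These 3 differences were positive and larger than their SEs, but none passed.

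Selp spread widely in YCR HSCs, with 47.5, 50.6, 81.4 and 122 CPM around the YAL libraries (log2 fold change -0.18, edgeR adjusted p = 0.909). Clec1b, Treml1 and Cd9 differed by 0.05, 0.31 and 0.14 on the log2 scale and did not pass.

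Refeeding of young mice was read from YCRRF against YCR HSCs, where 0.0102% of 19535 genes passed and 5.52% had no overlap, and against YAL HSCs, where 0% of 19334 passed and 3.22% had no overlap. No member passed edgeR's test in either. At an unadjusted p under 0.05, 4 members would be counted against YCR, beside 7.27% of all genes, and 1, Selp, against YAL, beside 3.69%. DESeq2 called 2, Vwf and Gp5, against YCR, beside 0.848% of 44556 genes, and 0 against YAL, beside 0.119% of 43567. Gp5 was at 24.7, 12.5, 19.1 and 15.6 CPM in YCRRF HSCs, below every YCR library (log2 fold change -1.06, SE 0.254, edgeR adjusted p = 0.239). Vwf was at 470, 357, 278 and 534 CPM, with 1 library inside the YCR range (0.93, SE 0.233, edgeR adjusted p = 0.263).

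The replicate of YCRRF that stood apart, replicate 3, had the highest Pf4 of any diet library (98.6 CPM, beside 29.8, 24.6 and 15.6 in the other 3) and the lowest Selp of its group (91.9 CPM, beside 154, 151 and 148). Without it, Pf4 in YCRRF against YCR had a log2 fold change of -1.38 (edgeR adjusted p = 0.127) instead of -0.53 (0.921), and Vwf one of 1.08 (0.0980). Without it Selp in YCRRF against YAL was at 0.79 (SE 0.100, edgeR adjusted p = 0.202) instead of 0.65 (SE 0.162, adjusted p = 0.995). No member passed without it. Granulocyte and macrophage markers, which the sort leaves out, summed to 301 to 1642 CPM in YCRRF, 39.1 to 392 CPM in YCR and 39.9 to 692 CPM in YAL libraries, and their part in these values was not tested.

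The difference between the responses of old and young HSCs to CR was tested in 1 fit of the 4 groups, where 0.0424% of 28328 genes passed (0.0177% higher and 0.0247% lower). No member did, 1 (Gp9) had an unadjusted p under 0.05, beside 8.93% of all genes, and DESeq2, which passed 0.456% of 52399 genes, called 0. Old minus young, the value was -0.55 for Gp9 (SE 0.188, edgeR adjusted p = 0.388), 0.43 for Vwf (SE 0.240, edgeR adjusted p = 0.667), -0.62 for Clec1b (SE 0.427, edgeR adjusted p = 0.765) and -0.33 for Selp (SE 0.286, edgeR adjusted p = 0.855) on the log2 scale. These intervals are wide, so neither a like nor an unlike response is shown. The Pf4 difference was -0.11 (SE 0.364, edgeR adjusted p = 0.977).

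A further 61 genes in 4 lists (platelet receptors, granule cargo and secretion, signalling and cytoskeleton, and megakaryocyte transcription factors) show how the rest of the program stood. In OAL against YAL HSCs, 8 of 60 tested rose and 9 fell, beside 6.89% and 7.93% of all genes, or 13 and 4 with the other TMM factors. Those that rose include Itgb3, the beta subunit of the platelet fibrinogen receptor (log2 fold change 1.80, SE 0.151, edgeR adjusted p = 6.58e-05), with its partner Itga2b (0.52, SE 0.108, edgeR adjusted p = 0.0107). Those that fell include Gata1, the transcription factor of megakaryocytes and erythroid cells (-1.63, SE 0.324, edgeR adjusted p = 0.00922), and the kinase Syk (-0.64, SE 0.0933, edgeR adjusted p = 0.00231).

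In OCR against OAL HSCs, 4 of 60 rose and 6 fell, beside 2.54% and 3.03% of all genes. Itgb3 fell from 305 to 390 CPM in OAL to 156 to 223 CPM in OCR libraries (-0.82, SE 0.0978, edgeR adjusted p = 1.09e-06). Gata1 rose from 1.70 to 5.10 CPM to 6.27 to 10.8 CPM (1.46, SE 0.236, edgeR adjusted p = 0.000112), and Syk by 0.50. Cd63, a granule membrane tetraspanin (-0.40), and the transcription factor Mef2c (-0.35) also fell. Itgb3 was the 1 gene of the lists whose response to CR passed as different between old and young HSCs (-1.34, SE 0.230, edgeR adjusted p = 0.0396), beside 0.0424% of all genes. It had 68.3 to 121 CPM in YAL and 99.5 to 167 CPM in YCR libraries. The result depended on the fit. No gene of the lists passed in 1 fit of all diet groups, with the replicate number as a block, or with any 1 OCR or OAL library left out. DESeq2 called 2 genes of the lists, both lower.

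In OCRRF against OCR HSCs, 9 of 61 fell and none rose, beside 2.71% and 0.694% of all genes. With the other TMM factors 4 fell and 1 rose, and 2 (without OCRRF replicate 1) to 12 fell with a library left out. Gata1 was at 2.44 and 3.87 CPM in OCRRF (-1.53, SE 0.258, edgeR adjusted p = 0.00013). The transcription factor Gfi1b (-0.75), its fellow Zfpm1 (-0.56), the cytoskeletal genes Plek (-0.72) and Tpm4 (-0.56) and Itga2b (-0.47) also fell. In OCRRF against OAL, 17 of 60 fell and none rose, beside 2.48% and 1.66% of all genes. Only 4 fell and 1 rose with the other TMM factors, which also turned the balance over all genes, and 1 to 9 fell with a library left out. In YCR against YAL, 1 of 58 rose and none fell, beside 0.0642% and 0.193% of all genes. This was Gfi1b, from 109 to 119 CPM to 153 to 234 CPM (0.79, SE 0.139, edgeR adjusted p = 0.0480). No gene of the lists rose with the replicate number as a block, or with any library but YCR replicate 4 left out. With DESeq2 3 rose and 3 fell. The median log2 fold change over the lists was 0.05, -0.09, -0.13, -0.19 and 0.08 in these 5 comparisons, beside 0.05, 0.02, 0.11, 0.12 and 0.01 over all genes.

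Which genes varied most like each member was read as the Pearson correlation of log2 CPM over the 22 diet libraries, centred within old and within young, among 12329 genes averaging 5 CPM or more. These values describe libraries that share depth and sort, and carry no test. The centring left in the differences between diet groups that are given above, and YCRRF replicate 3, which stood apart, was included. The part of either in these values was not tested. Vwf was most like Clu (r = 0.858) and Arhgef3 (0.855), and Clec1b most like Selp (0.821) and its neighbour Clec1a (0.820), 15437 bp away. Selp was most like Gm16587 (0.947) and Gm16548 (0.926), the antisense genes that overlap it, whose reads cannot be told apart from its own. Pf4 was most like Cdc25b (0.910) and Cycs (0.902), Gp9 like Klf13 (0.905) and Panx1 (0.873), and Gp5 like Tuba8 (0.936) and Tpx2 (0.854), of which Cdc25b and Tpx2 act in mitosis. For Treml1 the values were 0.767 (Gm19710) and 0.764 (Tmem41b), and for Cd9 0.798 (Gnai2) and 0.779 (Clic1).

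The members' promoters were read in the chromatin data of old HSCs. H3K4me3, a histone mark of active promoters, was deposited as signal per base in the 750 bp downstream of each start, for 2 OCR libraries. In replicate 1 and replicate 2, Cd9 had 41.7 and 35.7, Selp 26.3 and 22.5, and Vwf 13.4 and 10.8, all above the medians of 10.2 and 9.64 over 31552 promoters. The other 6 lay below these medians, from 6.11 and 5.19 at Gp5 to 4.29 and 3.65 at Pf4, and Clec1b was lowest with 0.509 and 1.02. Both libraries put Cd9, Selp, Vwf, Gp5 and Gp9 in this order.

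H3K27me3, a mark of silenced promoters, was deposited for the 2000 bp downstream of each start. Gp1bb, the member with next to no reads, had 2.49 and 2.56, at the 89.1 and 89.4 percentiles of all promoters, whose medians were 0.312 and 0.316. The other 8 members had 0.0897 to 0.264, below the median in both libraries. The Gp1bb window overlaps Sept5 and Gm49601, so its signal cannot be told apart from theirs. The H3K4me3 and H3K27me3 libraries of OAL HSCs were not analysed here.

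Accessibility of old HSCs was compared in ATAC-seq counts, between 4 OCR and 2 OCRRF libraries of 15721335 to 19558148 counts each. Of 123372 peaks tested, 0.221% passed (edgeR adjusted p below 0.05, fold above 1.5, mean log2 CPM above 1.5), and 20.4% had no overlap. A peak lay within 1 kb of the start of 8 members, all but Clec1b, and none of the 8 peaks passed. The peak with the smallest p was that of Pf4 (chr5:90771486-90773085), which spans the printed promoter, with 38.0, 45.8, 43.4 and 46.3 CPM in OCR and 52.1 and 49.4 CPM in OCRRF. The groups did not overlap, and the log2 fold change of OCR against OCRRF was -0.23 (SE 0.0790, edgeR adjusted p = 0.206), while its transcript was higher in OCR. At Gp5 the peak (26.6 CPM in OCR and 27.7 in OCRRF, adjusted p = 0.883) and at Gp9 (18.4 and 19.0 CPM, adjusted p = 0.923) overlapped between the groups. Selp (8.12 and 6.97 CPM, adjusted p = 0.663) and Vwf (9.41 and 9.75 CPM, adjusted p = 0.938) did so as well.

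PU.1 is an ETS factor of myeloid and stem cells. Its peaks, called by the authors in each of 6 libraries (2 each of OAL, OCR and OCRRF, 2262 to 5464 peaks a library), were counted within 10 kb of each start. Of 24335 genes, 6.57% and 6.08% had a peak there in replicates 1 and 2 of OAL, 11.4% and 8.16% in OCR, and 5.81% and 4.79% in OCRRF, and 2.95% had one in all 6 libraries. Pf4 was the 1 member with such a peak in all 6, and the peak covered its start each time. Its fold enrichment was 7.20 and 9.07 in OAL, 10.1 and 7.17 in OCR, and 9.98 and 6.62 in OCRRF, with −log10 q values of 5.71 to 14.0. Within each group the 2 libraries differed by as much as the groups did. By the labels of replicate 1 and the file names of replicate 2, the 2 replicates used different PU.1 antibodies. Replicate and antibody thus cannot be told apart. The labels of replicate 2 also carry a batch number that those of replicate 1 lack.

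The printed Pf4 promoter has ETS letters near its 3′ end, inside all 6 of these peaks. Gp9 had a peak 1485 bp from its start in OCR replicate 1 alone (fold enrichment 6.43), and the other 7 members had none within 10 kb in any library. Within 50 kb, peaks in all 6 libraries lay near Vwf, Selp, Pf4, Clec1b and Treml1. The share of all genes with such peaks within 50 kb was not computed, so this count cannot be called high or low.

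**Figure D3:**
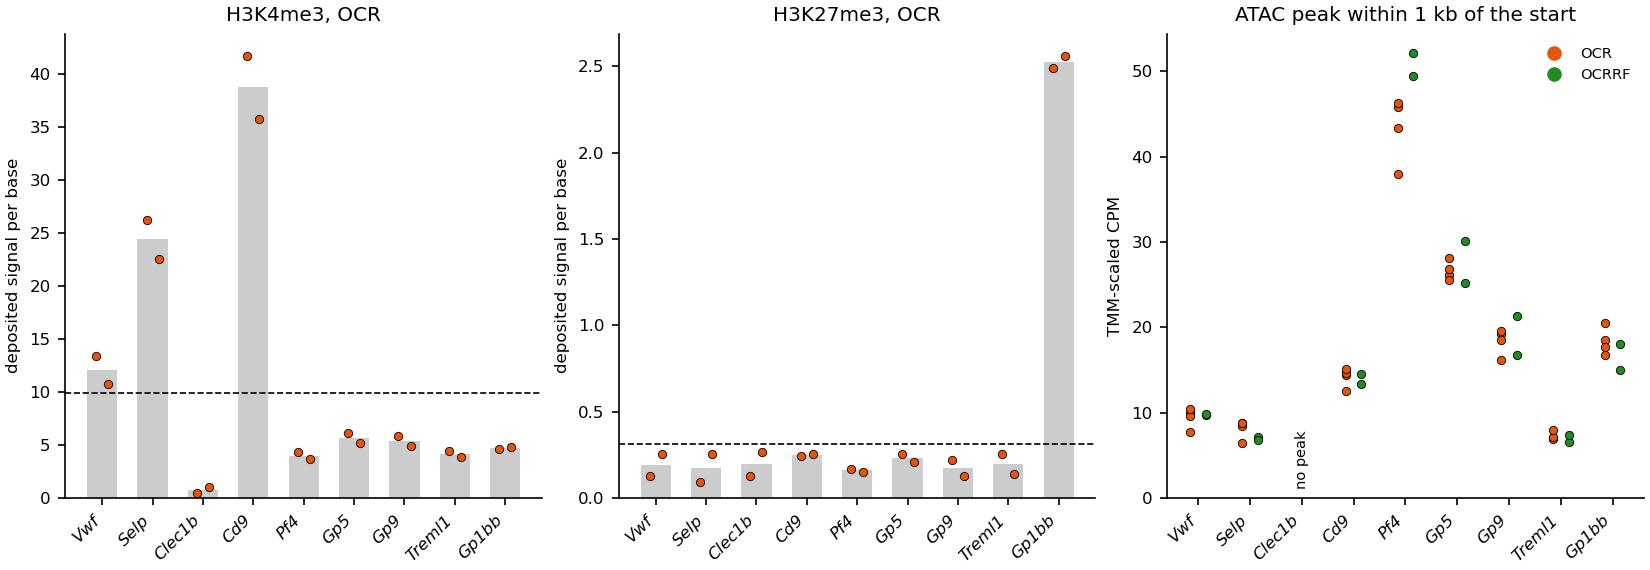
Promoter signal of the 9 members: H3K4me3 and H3K27me3 signal per base in OCR HSCs (bars are means of 2 libraries, points are libraries, the dashed line is the median of all promoters), and ATAC-seq CPM at the promoter peak in OCR and OCRRF HSCs. Cd9, Selp and Vwf lie above the H3K4me3 median, and only Gp1bb lies above that of H3K27me3.

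The knockdowns were each compared with their own scramble. The targeted genes were read before the members. Kdr was at 6.04 and 6.07 CPM in GFP_Scramble and at 1.93, 2.22, 3.28 and 2.03 CPM in GFP_Kdr HSCs, and at 3.98 and 4.63 CPM in Double_Scramble and 1.24, 0.556, 1.60 and 1.35 CPM in Double_KdrBmpr HSCs. Its log2 fold changes of -1.35 (SE 0.251) and -1.86 (SE 0.373) did not pass after adjustment (edgeR adjusted p = 0.247 and 0.272), although no library overlapped. Bmpr1a was at 5.21 and 4.43 CPM in Double_Scramble and at 4.44, 0.657, 2.22 and 0.595 CPM in Double_KdrBmpr HSCs. The library labelled Double_KdrBmpr replicate 1 thus had the scramble level of Bmpr1a.

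In GFP_Kdr against GFP_Scramble, 0.0149% of 20098 genes passed, 8.9% had an unadjusted p under 0.05 and 21.9% had no overlap. No member passed, and Vwf was the 1 member with an unadjusted p under 0.05. Vwf was at 169 and 226 CPM in GFP_Scramble and at 94.6, 111, 101 and 72.1 CPM in GFP_Kdr HSCs, with every knockdown library below both controls. The log2 fold change was -1.06 (SE 0.165), with an unadjusted p of 0.000135 and an edgeR adjusted p of 0.183. DESeq2 (adjusted p = 2.43e-08, where 0.836% of 31225 genes passed) and edgeR with no low-count filter (adjusted p = 0.000628) called it, and so did the fit with the replicate number as a block (-0.93, adjusted p = 0.0224), where the labels give these numbers no shared origin. With GFP_Scramble replicate 2 left out the value was -0.84 (SE 0.195, adjusted p = 0.993). Of 8 HSC marker genes, all had a negative log2 fold change in GFP_Kdr and 5 an unadjusted p under 0.05, with a median of -0.26 beside -0.0023 over all genes, and their part in the Vwf value was not tested.

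Selp was at 190 and 197 CPM in GFP_Scramble and at 160, 196, 181 and 229 CPM in GFP_Kdr, around the same level (log2 fold change -0.01, SE 0.125, edgeR adjusted p = 0.980). Cd9 (0.01, SE 0.0656), Gp5 (0.02, SE 0.171), Pf4 (-0.08, SE 0.300) and Gp9 (-0.10, SE 0.141) had differences smaller than their SEs. Clec1b (-0.27) and Treml1 (-0.52) did not pass, on 0.659 to 2.13 CPM and 1.32 to 4.78 CPM.

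In Double_KdrBmpr against Double_Scramble, 0.00498% of 20072 genes passed, 9.85% had an unadjusted p under 0.05 and 21.3% had no overlap. No member passed here either. Vwf was at 87.1 and 99.8 CPM in Double_Scramble and at 70.9, 24.7, 71.3 and 28.1 CPM in Double_KdrBmpr HSCs, again with every knockdown library below both controls (log2 fold change -0.94, SE 0.425, edgeR adjusted p = 0.529). The 2 libraries lowest in Vwf, replicates 2 and 4, were also the 2 lowest in Bmpr1a, and they carry different Bmpr1a hairpins. Both are number 2 of their hairpin in the labels, and the other 2 libraries are number 1. Pf4 split the same way, with 44.8 and 50.7 CPM beside 77.4 and 79.0 CPM. The level of Bmpr1a and a shared replicate number cannot be told apart here. With 1 hairpin at a time Vwf differed by -0.97 (SE 0.425, adjusted p = 0.405) and -0.91 (SE 0.373, adjusted p = 0.419), and without replicate 1, whose Bmpr1a was at the scramble level, by -1.17 (SE 0.428, adjusted p = 0.468).

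Clec1b had an unadjusted p of 0.0237 (log2 fold change -1.40, edgeR adjusted p = 0.437), on 0.842 and 2.95 CPM in Double_Scramble and 0.530 to 0.955 CPM in the knockdown, where the groups overlapped. Selp was at 154 and 184 CPM and at 183, 150, 123 and 183 CPM (log2 fold change -0.08, SE 0.161, edgeR adjusted p = 0.917). Gp9 (0.40), Gp5 (0.13), Pf4 (-0.29), Treml1 (-0.19) and Cd9 did not pass, and Clec1b was the 1 member with an unadjusted p under 0.05. DESeq2 called no member, beside 1.08% of 30763 genes.

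The 2 scrambles differed in Vwf by as much as either knockdown differed from its own, with 197 ± 40.1 CPM (SD, n = 2) in GFP_Scramble and 93.4 ± 8.98 (SD, n = 2) in Double_Scramble. The double minus the single knockdown response was 0.12 for Vwf (SE 0.521) in 1 fit of the 4 groups, where 0% of 21250 genes passed. No member passed or had an unadjusted p under 0.05 (3.58% of all genes did), and DESeq2 called none, beside 0.00888% of 33770 genes. Of the 61 other platelet and megakaryocyte genes, 59 were tested in each knockdown and 0 passed edgeR's test. At an unadjusted p under 0.05, 3 receptors, 1 granule gene, 4 signalling genes and 3 transcription factors would be counted in GFP_Kdr, and 2, 3, 5 and 1 in Double_KdrBmpr. Granulocyte and macrophage markers summed to 331 to 4584 CPM over the transplant libraries, with ranges that overlapped between each knockdown and its scramble. Endothelial markers summed to 269 to 288 CPM in GFP_Scramble and 202 to 260 CPM in GFP_Kdr, and to 232 to 238 CPM in Double_Scramble and 196 to 223 CPM in Double_KdrBmpr. Cdh5 and Sele were at 0 in every knockdown library, while Lyve1 was at 0 in every scramble library and not in every knockdown library. These sums are lower in the knockdowns. The list includes the targeted Kdr, whose mean was 6.05 CPM in GFP_Scramble and 2.36 CPM in GFP_Kdr, and 4.30 CPM in Double_Scramble and 1.19 CPM in Double_KdrBmpr. The source of the remaining difference was not tested.

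**Figure D4:**
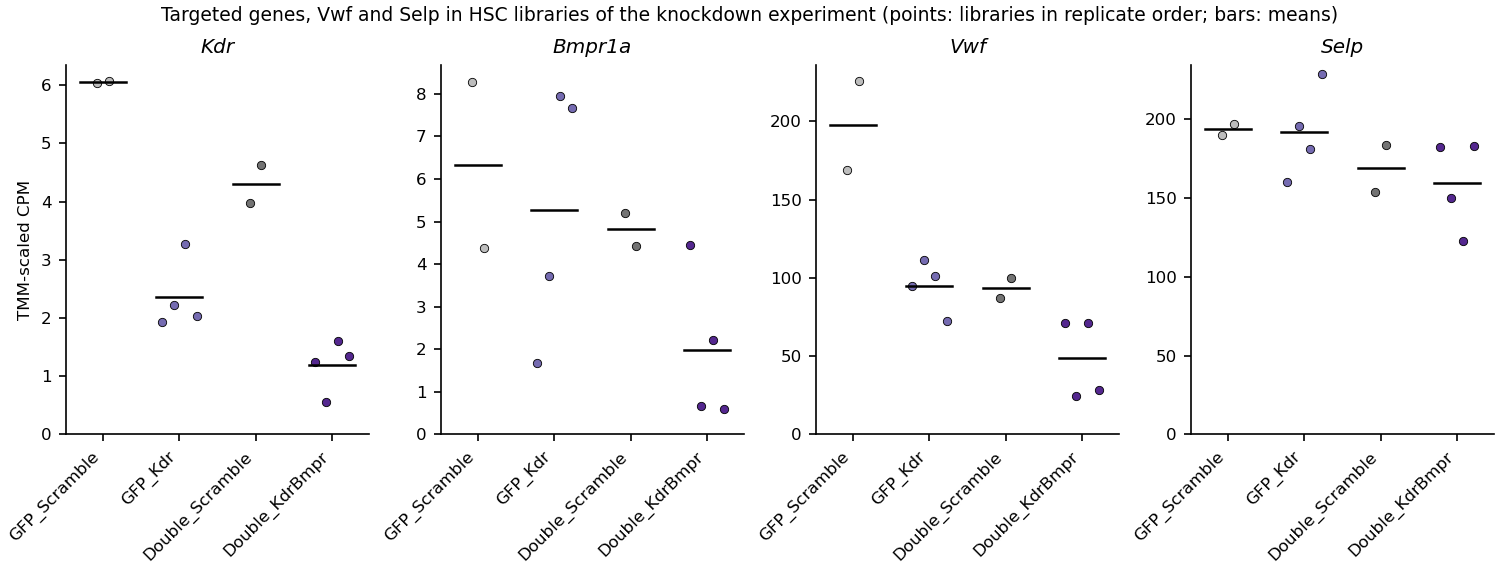
Level of Kdr, Bmpr1a, Vwf and Selp in CPM (vertical axes, each with its own scale) in transplanted HSCs of the 4 knockdown and scramble groups. Points are libraries and bars are group means. Vwf in all GFP_Kdr libraries (72.1 to 111 CPM) lies below both GFP_Scramble libraries, and Selp overlaps between the groups.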

How the data were processed

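RNA-seq of sorted mouse HSCs was analysed from 34 libraries of 50 samples with files here (58 in the labels), with 6 ATAC-seq, 4 histone and 6 PU.1 libraries. The authors trimmed RNA-seq reads with cutadapt, aligned them with STAR to mm10 and counted them with featureCounts, and they deposited raw whole-number counts per gene. The authors deposited ATAC-seq counts in 131918 peaks, histone signal per promoter, scaled by the authors to a common number of reads, and for each PU.1 peak called with MACS2 after BWA a score, a fold enrichment (a ratio) and −log10 of the p-value and q-value. Peaks were called per library. The files hold no depth for the histone and PU.1 values, and the number of libraries limits their precision. OAL libraries of ATAC-seq and histone marks were not analysed here.

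Each pair of groups was fitted in R 4.3.3 with edgeR 4.0.16 (filterByExpr, TMM, glmQLFit, glmQLFTest) on all its genes, with Benjamini-Hochberg adjustment. Genes with an adjusted p below 0.05 and a fold above 1.2 passed. The SE is the absolute log2 fold change over the square root of F. A gene's groups overlap where their CPM ranges do. Levels are TMM-scaled CPM. The 2 differences of differences were fitted over their 4 groups. Each fit was tested on simulated counts with 200 genes changed by 2-fold, and recovered 53.5% of them for OCR against OAL, 45.5% for OCRRF against OCR, 40% for OCRRF against OAL, 41% for OAL against YAL, 33% for YCR against YAL, 23.5% for YCRRF against YCR, 17.5% for YCRRF against YAL, 53.5% for GFP_Kdr and 43.5% for Double_KdrBmpr. Alternatives were DESeq2 1.42.0, its size factors, TMM factors computed on well-expressed genes only (averaging 5 CPM or more), all genes unfiltered, a floor of 10 counts per library, the adjusted p alone, 1 fit of all groups, the replicate number as a block, and each library left out.

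All members were named, and of the other platelet lists those that passed with a mean of at least 5 CPM, at most 8 a comparison in order of size. A gene of these lists is not reported here by name. Marker genes and other related genes named in the text were picked with their values in view. The members and lists were chosen with earlier results of these data known, so no comparison is independent of that choice. Replicate 1 of PU.1 names its antibody in the label, and that of replicate 2 comes from the name of the deposited file.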

Additional observations from a re-analysis of the deposited data

Results flagged for a closer look

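In 63 sets, each of 1 member in 1 group of 4 libraries, 1 library lay far from its group in 8 cases by Dixon's test at the 95% level. Chance gives this in about 1 of 20 sets if values are independent and normally distributed. Sets of the same group share their libraries, and the low counts of Gp1bb are not normally distributed, so the 8 cases cannot be set against that rate. Selp in YCRRF replicate 3 was at 91.9 CPM, under the other 3 libraries at 148 to 154 CPM, in the library that stood apart over all genes. Gp9 in OCR replicate 4 was at 31.4 CPM (41.4 to 42.4 in the others), and Treml1 in the same library at 6.90 CPM (8.82 to 8.91 in the others). Gp9 in GFP_Kdr replicate 2 was at 19.9 CPM (26.1 to 27.1 in the others). The remaining 4 cases are Gp1bb at or near its floor, with 0.201 CPM in YCRRF replicate 1, 0.710 CPM in YCR replicate 2, 0.220 CPM in YAL replicate 4 and 0.178 CPM in GFP_Kdr replicate 4.

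Selp after refeeding lay on opposite sides of the ad libitum level in old and young HSCs. Both OCRRF libraries were below the OAL mean, with a ratio of the means of 0.819, and all 4 YCRRF libraries were above the YAL mean. The difference between old and young was not tested.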

How the results depend on the processing

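Of 544 values of members with an unadjusted p under 0.05 over the alternative settings, none changed sign. The adjusted p alone and the unadjusted p reuse the main fit, so no sign could change there. Over all tested members, signs changed in 0 of 128 values in OCR against OAL and 0 of 112 in OCRRF against OCR. In the other comparisons they changed in from 1 of 128 (OAL against YAL) to 17 of 160 (double minus single knockdown). Counts of members passing moved in 22 of 101 settings other than leaving out a library and in 11 of 108 that left one out. In OCR against OAL, 2 members passed, against 5 with no filter on low counts, 0 in 1 fit of all groups, and 1 to 3 with a library left out. In OCRRF against OCR, 4 passed, against 2 with TMM factors computed on well-expressed genes only (averaging 5 CPM or more), 0 in 1 fit of all groups, and 2 to 6 with a library left out (2 without OCRRF replicate 1). In OCRRF against OAL, 3 passed, against 5 with DESeq2, with its size factors or with no filter, 0 with the other TMM factors or in 1 fit of all groups, and 0 to 2 with a library left out. In OAL against YAL, 4 passed, and 2 to 5 with a library left out (2 without OAL replicate 1 or 2). In YCR against YAL, 0 passed, against 2 with DESeq2 or no filter, 1 with at least 10 counts in every library or 1 fit of all groups, and 0 to 1 with a library left out. In YCRRF against YCR, 0 passed, against 2 with DESeq2 and 3 with no filter or 1 fit of all groups. In GFP_Kdr against GFP_Scramble, 0 passed, against 1 (Vwf) with DESeq2, no filter or at an unadjusted p, and in Double_KdrBmpr against Double_Scramble 0 passed, against 1 (Clec1b) at an unadjusted p. PU.1 peaks in all libraries were near 1 member within 10 kb and 5 within 50 kb, where the share of all genes was not computed. The cause of these moves was not tested.

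Same-numbered libraries of compared groups did not deviate together (correlations of -0.148 to 0.176, and -0.0155 in ATAC-seq). With few libraries this cannot exclude a pairing, and same-numbered libraries within Double_KdrBmpr were not compared. With the replicate number as a block, 1 member passed in GFP_Kdr against GFP_Scramble in place of 0, and no other count of members moved by over 1.5 times.

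The number of all genes passing moved by over 1.5 times too. In OCR against OAL it was 1511, and 212 in 1 fit of all groups. In OCRRF against OCR it was 1110, and 2391 with DESeq2, 3437 with the block and 64 in 1 fit. In OCRRF against OAL it was 1316, and 4577 with DESeq2, 3215 with its size factors, 2684 with no filter, 2080 with the block, 808 with the other TMM factors and 0 in 1 fit. In OAL against YAL it was 3486, and 7953 with DESeq2, 6671 with no filter, 1852 with at least 10 counts and 1651 with the block. In YCR against YAL it was 48, and 527 with DESeq2, 368 with no filter, 201 in 1 fit, 98 with at least 10 counts and 7 with the block. In YCRRF against YCR it was 2, and 0 with the block to 538 in 1 fit, and in YCRRF against YAL it was 0, and up to 52 with DESeq2. In GFP_Kdr it was 3, and 0 in 1 fit to 261 with DESeq2, and in Double_KdrBmpr 1, and 0 with the block to 332 with DESeq2. In the difference between old and young responses to CR it was 12, and 3 in 1 fit or with the block to 239 with DESeq2. Those other TMM factors moved the median log2 fold change over all genes from 0.11 to 0.24 in OCRRF against OCR and from 0.12 to 0.26 in OCRRF against OAL. With a library left out, the number of genes passing was 1106 to 1655 in OCR against OAL, 352 (without OCRRF replicate 1) to 2755 (without OCR replicate 3) in OCRRF against OCR, 38 to 385 in OCRRF against OAL, 1475 (without OAL replicate 1) to 5358 (without YAL replicate 4) in OAL against YAL, 6 to 28 in YCR against YAL and 2 to 27 in the difference between old and young. The number of ATAC-seq peaks passing was 273, and 764 with the block, 172 with DESeq2 and 98 (without OCRRF replicate 1) to 367 (without OCR replicate 4) with a library left out, with 0 peaks of members in each. Gp1bb had too few counts for a test.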
